A study of Mus musculus with 18 samples.

Results

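A set of 10 extracellular matrix genes was followed in cultured mouse testes, namely Col1a1, Col1a2, Col3a1, Col5a1, Col5a2, Col6a1, Col4a1, Col4a2, Fn1 and Lama1. They were chosen by name, with earlier results of these data known. All 10 were found by their NCBI gene number among the 22657 genes of the table, and all 10 were among the 15790 genes tested. The RNA-seq data came from 18 samples in 6 groups of 3. Three-week-old ICR mice, an outbred strain, received busulfan once (40 µg/g body weight) or none, and their testes were collected 2 weeks later. Testes were then cultured for 48 h in DMEM/F12 medium with 10% FBS at 37 °C and 5% CO2. Testes of mice without busulfan were cultured with no alginate oligosaccharides (A0) or with AOS at 10 µg/mL (A10) or 50 µg/mL (A50). Testes of busulfan treated mice were cultured likewise (B0, BA10 and BA50). These amounts per volume of medium are those of the sample labels and the methods, whereas the series' design text gives them per body weight. Busulfan is an alkylating anti-cancer drug, and AOS are short chains of sugar acids released when the seaweed polymer alginate is degraded. Busulfan therefore acted in the animal, whereas AOS acted only in the culture dish, and every group, A0 included, had been cultured. The study treated 6 testes a group and repeated this 3 times, and the labels do not say which mice gave a sample, so p-values measure the spread between these samples.

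Fibrillar collagens are secreted as triple helices and assemble into the fibers of the interstitial tissue. Type I collagen is built from the chains of Col1a1 and Col1a2, type III from that of Col3a1, and type V, a regulator of fiber assembly, from those of Col5a1 and Col5a2. Col6a1 encodes a chain of type VI collagen, which forms beaded microfibrils and is not a fibrillar collagen in the strict sense. Type IV collagen, with the chains of Col4a1 and Col4a2, makes the network of basement membranes. Lama1 encodes the alpha chain of the founding laminin of basement membranes, and in the testis it is a product of Sertoli cells. Fn1 encodes fibronectin, an adhesive glycoprotein bound by integrins. In the testis a basement membrane separates the seminiferous epithelium from the peritubular myoid cells and the collagen of the interstitium, and both Sertoli and myoid cells contribute to it.

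The genes lie on 7 chromosomes of the GRCm38 build (GENCODE M21). Col1a1 (NCBI gene 12842) spans chr11:94936224-94953042 on the plus strand, Col1a2 (12843) spans chr6:4504814-4541544 on the plus strand, and Col5a1 (12831) spans chr2:27886425-28039514 on the plus strand. Col3a1 (12825, chr1:45311538-45349706, plus strand) and Col5a2 (12832, chr1:45374321-45503282, minus strand) are neighbors that end toward each other, 24.6 kb apart. Fn1 (14268) lies on the same chromosome at chr1:71585520-71653200 on the minus strand. Col6a1 (12833) spans chr10:76708792-76726168 on the minus strand, and Lama1 (16772) spans chr17:67697259-67822647 on the plus strand. Col4a1 (12826, chr8:11198423-11312826, minus strand) and Col4a2 (12827, chr8:11312805-11449287, plus strand) start head to head, and their first exons share 22 bases. Whether reads were counted by strand was not given in the sources used here, so reads within those bases cannot be assigned to either gene. The shared stretch, chr8:11312805-11312826 on the plus strand, is shown because the ratio of these members varied least among the ratios computed, and its capitals mark the letters GGGCGG.

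Col4a1 and Col4a2 starts: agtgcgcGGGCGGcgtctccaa

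For members that varied together, the 250 bases before the start site were read from RefSeq (GRCm38.p6), in which 6 of the 10 genes had an entry. Col3a1 and Col5a1 are shown as a contrast in base composition between fibrillar collagens, since 35.2% of the Col3a1 window and 76.4% of the Col5a1 window were G or C (median of 32851 windows, 52.4%). They lie at chr1:45311288-45311537 and chr2:27886175-27886424, both on the plus strand. Capitals mark 3 motifs on either strand. The TATAAA box letters were present in 12.4% of all windows. The letters CCAAT were present in 33.8%. The letters GGGCGG were present in 32.7%.

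Col3a1: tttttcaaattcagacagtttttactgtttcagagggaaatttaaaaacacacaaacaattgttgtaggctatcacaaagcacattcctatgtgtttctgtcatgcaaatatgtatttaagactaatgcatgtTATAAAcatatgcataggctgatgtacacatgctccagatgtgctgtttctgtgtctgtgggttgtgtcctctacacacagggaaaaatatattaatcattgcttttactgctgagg

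Col5a1: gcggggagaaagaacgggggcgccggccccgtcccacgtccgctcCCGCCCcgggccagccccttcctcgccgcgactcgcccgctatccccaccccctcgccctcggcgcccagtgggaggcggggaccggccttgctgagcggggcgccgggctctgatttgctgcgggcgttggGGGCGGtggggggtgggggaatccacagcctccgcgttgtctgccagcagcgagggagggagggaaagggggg

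The Col3a1 window held 1 TATAAA and no match to the other 2 motifs in capitals. The Col5a1 window held GGGCGG 2 times, once on each strand, and no match to the other 2. The letters CCAAT were found once each in the windows of Col1a2, Col4a1 and Col4a2, and absent from that of Col6a1. CAGACA was present in the windows of Col1a2, Col3a1 and Col5a1 (17.1% of all windows), and TGANTCA in that of Col6a1 (6.75%). None of the 5 motifs searched was thus common to the 6 windows, and letters in such a window say nothing of which factor binds there.

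Levels are given as FPKM, a fragment count scaled to the length of the gene and to the fragments mapped in the sample, so that levels of different genes can be set side by side. All 14 Sertoli and all 9 Leydig cell marker genes looked for were listed above 0 in some sample. The fat cell, simple epithelium and red blood cell markers looked for met this mark as well, so it could not test the tissue label. The column sums of FPKM ranged from 463970 to 511274, and read depth was not given. Some samples stood apart from their groups. The third A10 sample correlated with the other A10 samples at 0.929 and 0.941 (Pearson's r over log2 values), against 0.985 between those 2, and its summed Sertoli cell markers were 865 FPKM against 1603 and 1667. The B0 samples held fat cell transcripts at summed levels of 207 to 888 FPKM, against 42.5 to 138 FPKM in the other 15 samples, and simple epithelium transcripts at 113 to 279 FPKM, against 42.6 to 74.6 FPKM. The second BA50 sample had the highest spermatid marker sum of all samples (11774 FPKM) and the lowest endothelial (58.4 FPKM) and stromal (72.2 FPKM) sums.

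The type I, III and IV collagen transcripts were among the most abundant of the tissue. Over the 18 samples the median level was highest for Col3a1 (346 FPKM), followed by Col1a2 (212 FPKM), Col4a1 (170 FPKM), Col1a1 (130 FPKM), Fn1 (120 FPKM) and Col4a2 (102 FPKM). Col3a1 was above 98.7% of tested genes in its mean log2 level, whereas Col5a2 was above 84.6%, Col6a1 above 83.0% and Col5a1 above 65.1%. A lower tier held Col5a2 (41.6 FPKM), Col6a1 (36.2 FPKM) and Col5a1 (16.3 FPKM), and Lama1 was lowest (8.91 FPKM). Neighbors in this order were often not separated. Fn1 exceeded Col4a2 in 9 of 18 samples, Col5a2 exceeded Col6a1 in 9, Col1a1 exceeded Fn1 in 11, and Col1a2 exceeded Col4a1 in 11. Col3a1 exceeded Col1a2 in 17 of 18 samples, Col4a2 exceeded Col5a2 in 18, and Col6a1 exceeded Col5a1 in 18.

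**Figure D1:**
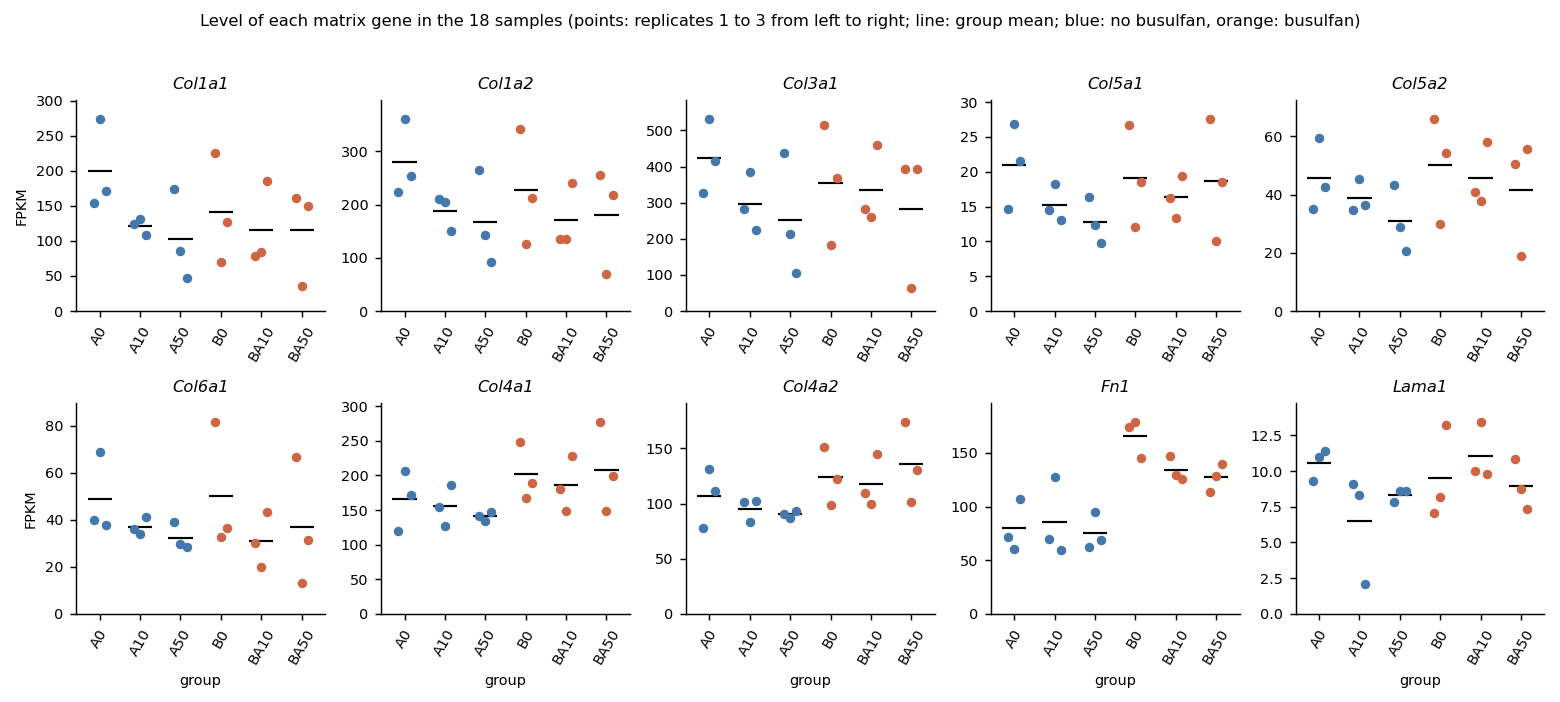
Level of each of the 10 genes in FPKM (vertical axis, from 0) in the 6 groups (horizontal axis), where points are the 3 samples of a group in order of replicate number and lines are group means. The busulfan groups (orange) lie above the groups without it (blue) for Fn1 except for 1 A10 sample at 127 FPKM, whereas the points of Col1a1, Col1a2 and Col3a1 spread over the same range in both.

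The question put to busulfan was whether matrix transcripts differed in testes of treated animals at each AOS level, and on average over the 3 levels. The mean busulfan change is the average of the differences B0 minus A0, BA10 minus A10 and BA50 minus A50, which share no samples. In the mean busulfan change Fn1 and Col4a2 passed the test. Col4a1 had the same estimate as Col4a2 to 2 decimals (0.35 log2) and did not pass. The fibrillar collagens, Col6a1 and Lama1 did not pass either. In limma on log2(FPKM + 1), 2 of the 10 genes had an adjusted p under 0.05 in the mean busulfan change, both higher, where 13.3% of all tested genes were called higher and 24.8% lower. That split depended on the scaling, with 25.2% higher and 20.1% lower under median centring and 23.2% and 21.8% under quantile normalization, whereas Fn1 stayed called higher under both. Compared to A0, 1 of 10 was called in B0, where 1.47% of tested genes were called higher and 12.3% lower. Compared to A10, 0 of 10 were called in BA10 (2 with an unadjusted limma p under 0.05), where 3.74% were called higher and 15.2% lower. Compared to A50, 1 of 10 was called in BA50, where 3.7% were called higher and 16.2% lower. The study set limits of an adjusted p of at most 0.001 and a log2 change of at least 1 for its own lists, which were AOS comparisons made with DEGseq. At these limits, applied here to busulfan differences in limma, 0 of 10 were called in B0, BA10, BA50 and the mean busulfan change, where 2.54%, 3.01%, 3.39% and 3.61% of tested genes passed. At an unadjusted p under 0.05 the counts were 1, 2, 2 and 3 of 10, where 24.9%, 32.9%, 32.35% and 47.4% of all tested genes passed in either direction. The median mean busulfan change of the 10 genes was 0.17 log2, and that of all tested genes was 0.01 log2.

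Fn1 was the member with the largest change. Its levels were 71.2, 60.1 and 107 FPKM in A0 and 174, 179 and 146 FPKM in B0. In A10 they were 69.7, 127 and 59.3 FPKM, and in BA10 they were 147, 129 and 126 FPKM. In A50 they were 62.7, 94.5 and 69.1 FPKM, and in BA50 they were 114, 129 and 139 FPKM. B0 lay above A0 without overlap, as did 10.5% of all tested genes, and BA50 above A50, as did 16%, whereas the second A10 sample reached the range of BA10. Over all samples Fn1 averaged 142 ± 21.9 FPKM with busulfan (SD, n = 9) and 80.1 ± 24.0 FPKM without it (SD, n = 9). The mean busulfan change was 0.86 log2 (1.81-fold, SE 0.15, limma adjusted p = 0.00027), and Fn1 was higher at 3 of 3 AOS levels (exact stratified permutation test, two-sided p = 0.0005, not adjusted, where the smallest possible p is 0.00025). Compared to A0, Fn1 rose by 1.09 log2 in B0 (2.13-fold, SE 0.25, limma adjusted p = 0.00843). Compared to A50 it rose by 0.76 log2 in BA50 (1.70-fold, SE 0.25, limma adjusted p = 0.0459), a call that was lost under the replicate block (0.0583), with no filter on low genes (0.0618) and under quantile normalization (0.0787). The difference between BA10 and A10 was 0.72 log2 and did not pass (limma adjusted p = 0.0606).

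The Fn1 call in the mean busulfan change and in B0 held whichever 1 of the 18 samples was left out, with limma adjusted p up to 0.000867 and 0.0442. The call in BA50 was lost in 13 of these 18 omissions (limma adjusted p from 0.0125 to 0.166 over all 18). It held without the second or the third A0 sample, the second or the third A10 sample or the second A50 sample. B0 was also the group with fat cell and epithelial transcripts, whose part in the Fn1 level was not tested. Spermatocyte marker sums were lower with busulfan at every AOS level (84.6 to 211 FPKM, against 433 to 663 FPKM without it). Sertoli marker sums were 1946 to 2920 FPKM with it and 865 to 1968 FPKM without it. The part of these differences in the Fn1 level was not tested either. With A0 and B0 left out, a setting chosen after seeing the data, the mean busulfan change of Fn1 over the other 2 AOS levels was 0.74 log2 (limma adjusted p = 0.00973). Fn1 and Col4a2 were again the 2 members called, where 8.1% of all tested genes were called higher and 20.1% lower. The call in BA50 against A50 was lost there (limma adjusted p = 0.0642).

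Col4a1 and Col4a2, the paired chains of basement membrane collagen, were higher by a smaller amount. Col4a1 levels were 120, 206 and 172 FPKM in A0 and 249, 167 and 190 FPKM in B0. They were 155, 127 and 187 FPKM in A10 and 181, 148 and 229 FPKM in BA10. In A50 they were 141, 135 and 147 FPKM and in BA50 they were 277, 149 and 199 FPKM. Of the 3 pairs only BA50 and A50 did not overlap, and narrowly, with 148.6 FPKM in the second BA50 sample against 147.5 FPKM in the third A50 sample. Col4a2 levels were 77.7, 131 and 111 FPKM in A0, 152, 99.0 and 122.6 FPKM in B0, 101, 83.6 and 102 FPKM in A10, and 109, 99.5 and 145 FPKM in BA10. In A50 they were 90.8, 87.1 and 93.4 FPKM and in BA50 they were 174, 102 and 131 FPKM, again without overlap, as for 16% of all tested genes in that direction. The mean busulfan change was 0.35 log2 for Col4a2 (1.28-fold, SE 0.13, limma adjusted p = 0.0398) and 0.35 log2 for Col4a1 (1.28-fold, SE 0.14, limma adjusted p = 0.0645), so that the first passed and the second did not. Both were higher at 3 of 3 AOS levels, and the exact stratified permutation test gave two-sided p = 0.018 for Col4a2 and p = 0.029 for Col4a1, not adjusted. The Col4a2 call was lost in 12 of 18 omissions of 1 sample, with limma adjusted p from 0.0152 to 0.0816, and also with no filter on low genes (0.0523) and under quantile normalization (0.0556). It held without the second A0, B0, BA10 or BA50 sample or the first or the third A10 sample. Endothelial cells also make type IV collagen. In the mean busulfan change 3 of the 10 endothelial markers were called higher (median 0.26 log2), where 13.3% of all tested genes were. Among these Cdh5 rose by 0.46 log2 and Pecam1 by 0.46 log2. The endothelial median was 0.54 log2 in B0, 0.29 log2 in BA10 and 0.06 log2 in BA50, each against its counterpart. Of 13 tested Sertoli markers 3 were called higher (median 0.29 log2), and of 10 myoid markers 1 (0.08 log2). The part of these cells in the Col4a2 level was not tested.

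The fibrillar collagens and Col6a1 gave no call in any busulfan comparison. Col1a1 levels were 154, 273 and 171 FPKM in A0, 124, 132 and 109 FPKM in A10, and 175, 85.8 and 46.7 FPKM in A50. With busulfan they were 226, 70.2 and 128 FPKM in B0, 77.7, 84.7 and 185 FPKM in BA10, and 161, 35.2 and 150 FPKM in BA50. Every busulfan group thus held a sample near or above the average of its counterpart and a sample far below it. The mean busulfan change of Col1a1 was -0.23 log2, with a 95% confidence interval from -0.96 to 0.50.

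Col1a2 levels were 224, 360 and 255 FPKM in A0, 211, 204 and 150 FPKM in A10, 265, 143 and 91.4 FPKM in A50, 342, 126 and 212 FPKM in B0, 135, 135 and 241 FPKM in BA10, and 256, 69.8 and 217 FPKM in BA50. Its mean busulfan change was -0.17 log2 (95% confidence interval -0.77 to 0.43). Col3a1 levels were 326, 531 and 415 FPKM in A0, 282, 385 and 223 FPKM in A10, 438, 214 and 104 FPKM in A50, 516, 182 and 367 FPKM in B0, 281, 261 and 461 FPKM in BA10, and 393, 64.3 and 393 FPKM in BA50. The mean busulfan change of this interstitial collagen was -0.06 log2, with the widest interval of the members (-0.84 to 0.72). These intervals allow a fall or a rise of over 1.3-fold in each of these chains, so the samples could not tell such changes from none.

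The type V chains and Col6a1 lay lower. Col5a1 levels were 14.7, 26.9 and 21.5 FPKM in A0, 14.5, 18.2 and 13.1 FPKM in A10, 16.4, 12.4 and 9.74 FPKM in A50, 26.7, 12 and 18.5 FPKM in B0, 16.2, 13.4 and 19.4 FPKM in BA10, and 27.6, 10.1 and 18.6 FPKM in BA50. Col5a2 levels were 34.9, 59.4 and 42.5 FPKM in A0, 34.7, 45.2 and 36.4 FPKM in A10, 43.2, 28.8 and 20.7 FPKM in A50, 65.9, 29.9 and 54.3 FPKM in B0, 40.8, 37.9 and 58.0 FPKM in BA10, and 50.6, 18.99 and 55.6 FPKM in BA50. Col5a1 and Col5a2 encode different chains of the same molecule, and their mean busulfan changes were 0.12 log2 (95% confidence interval -0.29 to 0.53) and 0.22 log2 (-0.26 to 0.69). Col6a1 levels were 40.0, 68.9 and 38 FPKM in A0, 36.0, 33.8 and 41.2 FPKM in A10, 38.9, 29.6 and 28.5 FPKM in A50, 81.7, 32.6 and 36.5 FPKM in B0, 30.1, 19.97 and 43.4 FPKM in BA10, and 66.9, 13.0 and 31.6 FPKM in BA50. Its mean busulfan change was -0.14 log2 (-0.72 to 0.45), and none of these 3 genes had groups that did not overlap.

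Lama1, the laminin chain, did not pass in any comparison. Its levels were 9.31, 10.97 and 11.4 FPKM in A0, 9.08, 8.32 and 2.10 FPKM in A10, 7.84, 8.62 and 8.61 FPKM in A50, 7.05, 8.19 and 13.2 FPKM in B0, 10.0, 13.4 and 9.81 FPKM in BA10, and 10.9, 8.74 and 7.36 FPKM in BA50. The third A10 sample, at 2.10 FPKM, was the lowest of all 18, and the other 17 lay between 7.05 and 13.4 FPKM. That sample also had the low Sertoli cell marker sum, and it was the lowest of its group for 11 of 13 tested Sertoli markers, with Sox9 at 4.71 FPKM against 14.3 and 12.3 FPKM. Whether this explains its Lama1 level was not tested. Compared to A10, Lama1 was 0.85 log2 higher in BA10 (SE 0.34, limma adjusted p = 0.0954), and without that sample the difference was 0.31 log2 (limma adjusted p = 0.398). Its mean busulfan change was 0.25 log2 (95% confidence interval -0.17 to 0.67) and became 0.07 log2 without that sample.

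**Figure D2:**
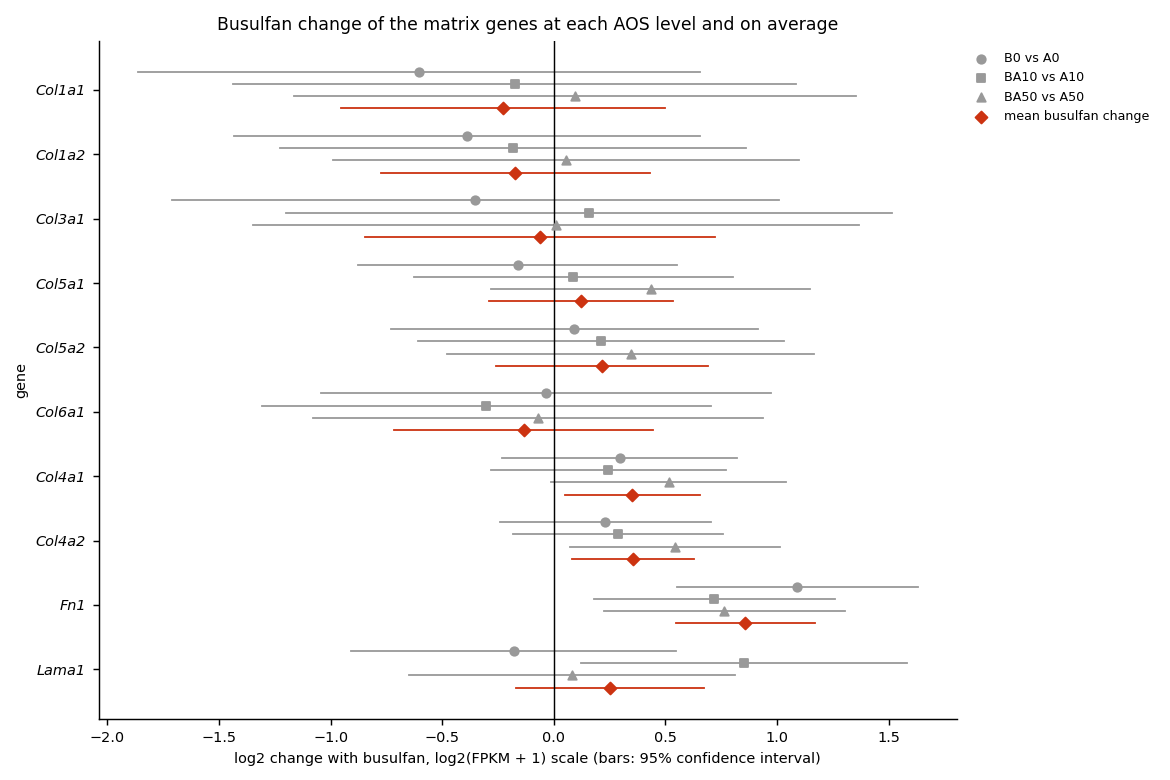
Change with busulfan of each gene on the log2(FPKM + 1) scale (horizontal axis) at each AOS level (grey) and on average (red diamonds), with 95% confidence intervals of the limma fit as bars. The interval of the mean change lies above 0 for Fn1, Col4a1 and Col4a2, of which Fn1 and Col4a2 passed after adjustment over all tested genes, and spans 0 for the other 7 genes.

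The fibrillar genes, Col6a1 and Lama1 differed widely between samples of the same group. The within-group SD on the log2 scale was 0.85 for Col3a1, 0.79 for Col1a1, 0.65 for Col1a2 and 0.63 for Col6a1, against a median of 0.21 over all tested genes. Col3a1 exceeded 98.1% of tested genes in this spread, Col1a1 97.7%, Col1a2 96.2%, Col6a1 95.9% and Col5a2 93.4%. Lama1 (SD 0.45) exceeded 90.3% and Col5a1 (SD 0.44) 89.5%. The spread of Fn1 (0.33), Col4a1 (0.32) and Col4a2 (0.29) was smaller and exceeded that of 76.5%, 74.8% and 69.1% of tested genes.

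Much of the variation was shared among all 8 collagens in A0, B0, BA10 and BA50, and among those other than type IV in A50. In B0 all 8 collagen genes were highest in the first sample and lowest in the second. In BA50 all 8 were lowest in the second sample, in A0 all 8 were highest in the second sample, and in BA10 all 8 were highest in the third. In A50 the type I, III, V and VI genes were highest in the first sample and lowest in the third, whereas Col4a1 and Col4a2 were highest in the third. In A10 they were split, with Col1a2 highest in the first sample, Col1a1, Col3a1, Col5a1 and Col5a2 in the second, and Col6a1, Col4a1 and Col4a2 in the third. The sample that was high differed from group to group. Fn1 followed the collagens in some groups only. In A0 and BA10 it was lowest in the sample where the 8 collagens were highest. In B0 it was highest where they were lowest, and in A50 it was lowest in the first sample. In A10, however, it was highest in the second sample and lowest in the third, as were Col1a1, Col3a1 and Col5a1. In BA50 it was highest in the third sample, with Col3a1 and Col5a2.

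Chains of one molecule kept their proportion closely while their level moved, and this was not particular to them. Col1a1 ranged from 35.2 to 273 FPKM, a 7.76-fold range, while the ratio of Col1a2 to Col1a1 stayed between 1.30 and 1.98, a 1.52-fold range. Type I collagen holds more Col1a1 than Col1a2 chains, whereas the FPKM of Col1a2 was the higher in all 18 samples. The ratio of Col4a1 to Col4a2 lay between 1.46 and 1.83, a 1.25-fold range, and that of Col5a2 to Col5a1 between 1.84 and 3.00, a 1.63-fold range. Between chains of different molecules, the ratio of Col3a1 to Col1a1 lay between 1.82 and 3.62, a 1.98-fold range. That of Col3a1 to Col1a2 lay between 0.92 and 2.09, a 2.26-fold range. Ratios across classes moved far more: Fn1 to Col1a1 ranged from 0.22 in the second A0 sample to 3.65 in the second BA50 sample, and Col4a1 to Lama1 from 11.02 to 35.3 in 17 samples and 89.0 in the third A10 sample, where Lama1 was lowest.

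**Figure D3:**
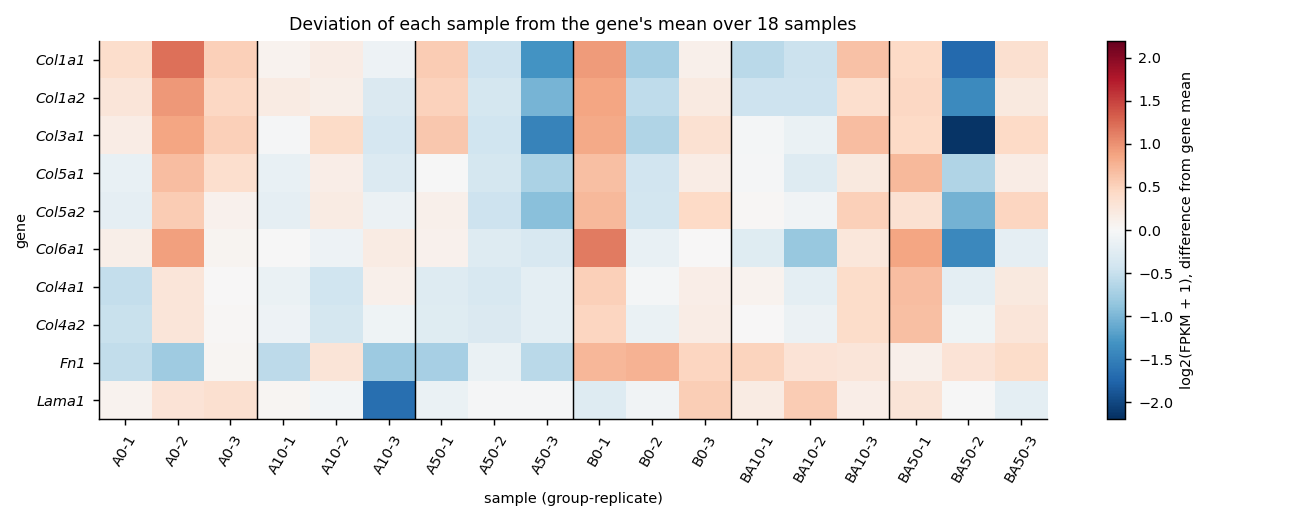
Difference of each sample from the mean of the gene on the log2(FPKM + 1) scale (color, red above and blue below), with the 10 genes as rows and the 18 samples as columns, grouped by vertical lines. Columns of the type I, III, V and VI genes share a color in most samples, the second BA50 sample is the deepest blue for Col3a1 (64.3 FPKM), and Lama1 is deep blue in the third A10 sample alone (2.10 FPKM).

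The genes whose log2 levels followed each class most closely over the 18 samples were found by Pearson's r, as a description. All samples share the FPKM scaling and the groups, so r carries no test. For Col1a1 the nearest were Col1a2 (r = 0.99) and Col3a1 (r = 0.95), and the nearest genes outside the 10 were Col6a3, a type VI collagen chain (r = 0.93), Bgn, the small proteoglycan biglycan (r = 0.91), and Mrc2, a collagen uptake receptor (r = 0.91). For Col4a1 the nearest was Col4a2 (r = 0.98), and outside the 10 they were Myh9, a non-muscle myosin (r = 0.92), Loxl3, a lysyl oxidase family member (r = 0.92), and Chst2, a sulfotransferase (r = 0.90). For Fn1 they were Nqo1, a quinone reductase (r = 0.92), Mmd (r = 0.91) and Esd, an esterase (r = 0.90), and no other member ranked near it (highest r = 0.35, with Col4a2). For Lama1 they were Spin1 (r = 0.97), Adam10, a membrane metalloprotease (r = 0.96), and Arhgap1 (r = 0.96), in which the third A10 sample carries much weight.

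Cell markers were set beside this variation. None of the marker lists contains a member. The second BA50 sample, lowest for the 8 collagens, was lowest in its group for the summed stromal (72.2 FPKM against 170 and 182 FPKM), endothelial (58.4 FPKM against 105 and 142 FPKM) and macrophage markers (305 FPKM against 653 and 751 FPKM), and highest for the spermatid markers (11774 FPKM against 5490 and 6657 FPKM). Over the 6 groups, the sum was highest in the sample where Col1a1 was highest in 5 groups for spermatogonium markers, in 4 each for peritubular myoid and red blood cell markers, in 3 each for endothelial, macrophage and fat cell markers, in 1 each for Sertoli, stromal and simple epithelium markers, and in 0 for Leydig cell, spermatocyte and spermatid markers. It was highest where Col1a1 was lowest in 4 groups each for spermatocyte, spermatid and simple epithelium markers. The stromal sum was weighted by Ly6a, which ranged from 5.91 to 263 FPKM. Without Ly6a it was highest where Col1a1 was highest in 4 groups and lowest where Col1a1 was lowest in 4. This omission was made for the stromal list alone, given the Ly6a values. Single genes weighed on other sums too, as Uchl1 did on the spermatogonium sum (93.6 of 123.5 FPKM in the first BA50 sample). With 3 samples a group some such matches arise by chance, and none of these counts was tested. In A50 Col3a1 was 438 FPKM in the first sample and 104 FPKM in the third, and the stromal sum without Ly6a was 149 and 91.9 FPKM. There 7 of 9 tested stromal markers were highest in the first sample and 7 of 9 lowest in the third. BA10 differed, with Col3a1 at 281 FPKM in the first sample and 461 FPKM in the third. There the stromal sum without Ly6a was 140 FPKM in both, and 6 of 9 tested stromal markers were highest in the first. In bulk tissue, fewer cells of a type and less RNA per cell cannot be told apart, and the part of cell composition in the collagen levels was not tested. Spermatocyte marker sums were 433 to 663 FPKM without busulfan and 84.6 to 211 FPKM with it, and Sertoli marker sums were 865 to 1968 FPKM and 1946 to 2920 FPKM.

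**Figure D4:**
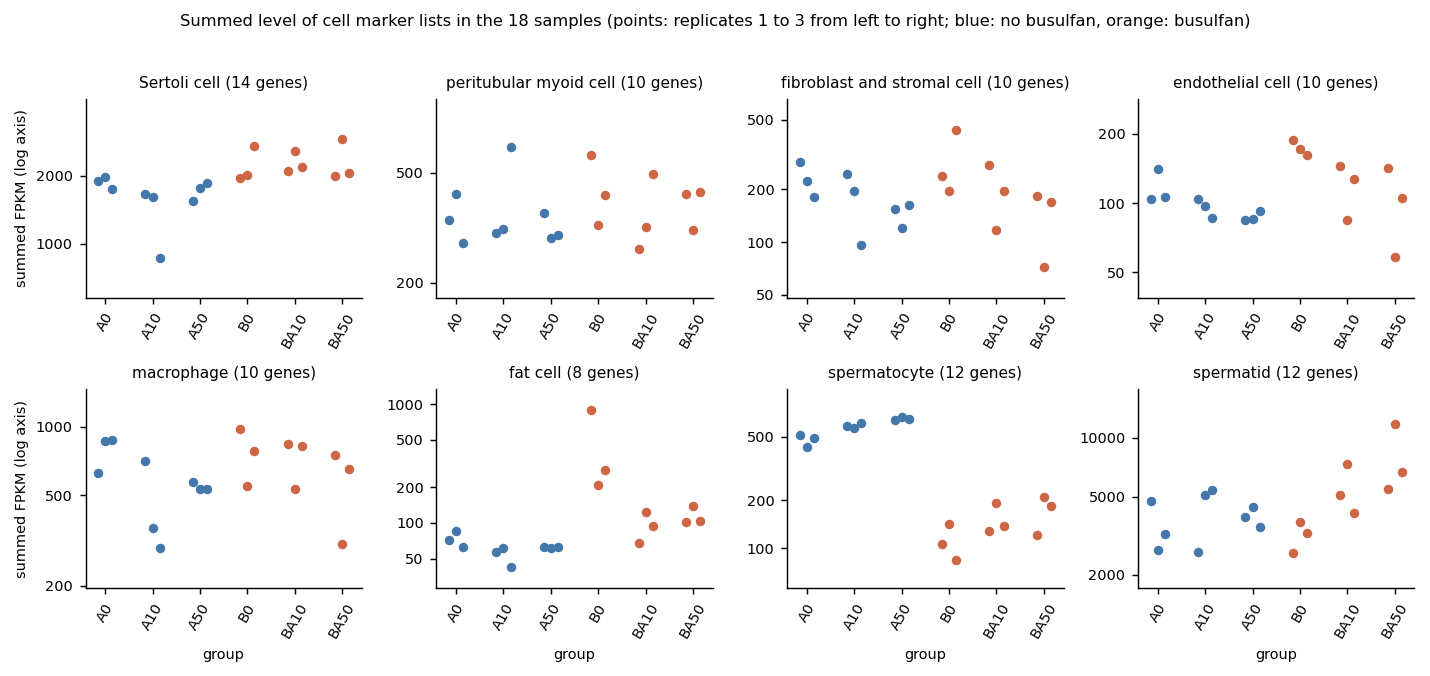
Summed FPKM of 8 marker lists (vertical axis, logarithmic) in the 6 groups (horizontal axis), with points for the 3 samples of a group. The spermatocyte sums of the groups do not overlap between no busulfan (433 to 663) and busulfan (84.6 to 211), the fat cell sums are highest in B0 (207 to 888), and the third A10 sample is low for Sertoli markers (865).

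Without the second BA50 sample the averages of fibrillar collagens and Col6a1 moved. The mean busulfan change of Col3a1 went from -0.06 to 0.23 log2, that of Col1a1 from -0.23 to 0.01 log2, that of Col1a2 from -0.17 to 0.02 log2 and that of Col6a1 from -0.14 to 0.06 log2, all without a call. Without it Col4a1 was called (0.42 log2, limma adjusted p = 0.0229), as was Col4a2 (0.42 log2, limma adjusted p = 0.0152).

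The question put to AOS was whether it moved these transcripts in culture, in testes without busulfan (A10 and A50 against A0) and with it (BA10 and BA50 against B0). By limma 0 of the 10 genes were called in each of these 4 comparisons, where 0%, 0%, 0.0253% and 0.095% of all tested genes were called. The last share, 1 gene higher and 14 lower in BA50, turned on single samples: it was 613 higher and 502 lower without the first BA50 sample, 50 and 92 without the third A10 sample, and 0 and 0 without the second BA50 sample, with 0 of the 10 members called in each case. At an unadjusted p under 0.05 the counts were 1, 0, 0 and 0 of 10, against 15.2%, 15.6%, 5.05% and 24.3% of all tested genes. Exact permutation tests of single members reach no lower p than 0.1 with 3 against 3 samples. The comparisons of A10 and A50 share A0, and those of BA10 and BA50 share B0.

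Compared to A0, the members were lower at 50 µg/mL by their estimates, with 10 of 10 below 0, a median of -0.56 log2 and values from -1.11 log2 for Col1a1 to -0.06 log2 for Fn1. The median of all tested genes was -0.06 log2, and 41.6% of them were above 0. Since the collagens varied together between samples, the signs of the members are not independent. The interval of Col1a1 ran from -2.37 to 0.15 log2 (limma adjusted p = 0.353), and that of Col5a1, at -0.66 log2, from -1.37 to 0.06 log2 (limma adjusted p = 0.34). At 10 µg/mL 9 of 10 estimates were below 0, with a median of -0.38 log2 and a range from -0.80 log2 for Lama1 to 0.06 log2 for Fn1, where 42.1% of all tested genes were above 0. Cell marker estimates are given beside them, with 0 called by limma. In A50 against A0 the median was -0.59 log2 for 9 stromal, -0.55 log2 for 10 macrophage, -0.37 log2 for 10 endothelial and 0.42 log2 for 12 spermatocyte markers, and in A10 it was -0.57, -0.96, -0.29 and 0.24 log2. Their part in the member levels was not tested. The groups did not overlap for Col1a1, Col1a2 and Lama1 in A10 and for Lama1 in A50, all lower, where 12.2% and 23.2% of all tested genes lay apart in that direction. Lama1 was -0.80 log2 in A10 (limma adjusted p = 0.322) and -0.25 log2 without the third A10 sample.

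Compared to B0, 9 of 10 estimates were below 0 in BA10 (median -0.14 log2, from -0.62 log2 for Col6a1 to 0.24 log2 for Lama1), where 44.4% of all tested genes were above 0. In BA50 8 of 10 were below 0 (median -0.35 log2, from -0.59 log2 for Col3a1 to 0.11 log2 for Col4a2), where 44.7% of all tested genes were above 0. The marker medians in BA50 against B0 were -0.64 log2 for stromal, -0.80 log2 for endothelial, -2.57 log2 for fat cell (4 of 7 called lower), -2.77 log2 for simple epithelium (3 of 7 called lower) and 1.07 log2 for spermatid markers, and their part was not tested either. Fn1 did not overlap between BA50 (114 to 139 FPKM) and B0 (146 to 179 FPKM), as did 13.5% of all tested genes in that direction, and its difference was -0.38 log2 (95% confidence interval -0.92 to 0.16, limma adjusted p = 0.348). Without the second BA50 sample, the estimates of the type I, III, V and VI genes were 0.00 to 0.30 log2 above B0 in place of below it.

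Whether the AOS difference depended on busulfan was tested as the difference of differences. By limma 0 of 10 genes were called at 10 µg/mL and 0 of 10 at 50 µg/mL, as were 0% of all tested genes at both. At an unadjusted p under 0.05 the counts were 1 and 0, where 3.97% and 6.28% of all tested genes passed. The 1 was Lama1 at 10 µg/mL (1.03 log2, limma adjusted p = 0.91), which was 0.49 log2 without the third A10 sample. The 95% confidence intervals of these differences reached up to 1.92 log2 to either side of the estimate, for Col3a1, so that sizeable differences could not be seen.

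The other genes of matrix biology were taken from lists of 141 genes in 8 groups, of which 132 were tested. In the mean busulfan change 27 were called higher and 6 lower, where 13.3% and 24.8% of all tested genes were called, and their median was 0.16 log2. The background changed with the scaling: under median centring 47 of the 132 rose and 5 fell (25.2% and 20.1% of all tested genes), and under quantile normalization 33 rose and 4 fell (23.2% and 21.8%). Counts were highest among the matrix receptors, where 10 of 20 rose and 1 fell (median 0.34 log2), against 13 and 0 under median centring and 11 and 0 under quantile normalization. These included the integrin subunits Itga2 (0.68 log2), Itga6 (0.60 log2), Itga3 (0.45 log2), Itga5 (0.34 log2) and Itgb1 (0.24 log2), of which Itga5 and Itgb1 form the classical fibronectin receptor. Sdc1, the heparan sulfate proteoglycan syndecan-1, rose most of the called receptors, by 0.84 log2 (62.3 ± 15.8 FPKM with busulfan and 34.4 ± 9.42 FPKM without, SD, n = 9 each, limma adjusted p = 0.00184). Itga8 fell by 0.36 log2 (limma adjusted p = 0.0403) at levels under 2.6 FPKM, a call that neither scaling kept. Syndecan-1 and several of these integrins are also made by epithelia, whose markers were present in B0. With A0 and B0 left out, 6 of 20 receptors rose and 0 fell (Ddr1, Itga5, Itga6, Itgb5, Sdc1 and Sdc4), and of all 132 genes 21 rose and 4 fell, where 8.1% and 20.1% of all tested genes were called.

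Among other fibrillar collagens 1 of 4 rose and 1 fell, where 13.3% of all tested genes were called higher and 24.8% lower. These shares hold for each list that follows, and no list was tested against them. Col5a3, the remaining type V chain, rose by 0.62 log2 (limma adjusted p = 0.0225), and Col2a1, the cartilage collagen, fell by 0.64 log2 (limma adjusted p = 3.93e-05) at 1.89 ± 0.62 FPKM with busulfan and 3.45 ± 0.67 FPKM without (SD, n = 9 each). Among 13 other collagens 2 rose and 1 fell, with Col18a1, a basement membrane collagen, at 0.41 log2 and Col28a1 at -0.32 log2. Among 20 laminins, nidogens and further basement membrane genes 3 rose and 2 fell, with Tinagl1 at 0.56 log2 and Smoc2 at -0.80 log2. Of 22 genes for collagen processing and crosslinking 2 rose and 0 fell, with the larger rise for Bmp1, the procollagen C-proteinase, at 0.38 log2 (limma adjusted p = 0.0273). Rises of 2 of 13, 3 of 20 and 2 of 22 lay near or below the share of all tested genes.

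Of 17 matrix proteases and their inhibitors 4 rose and 0 fell, led by Plau, the urokinase plasminogen activator, at 0.59 log2 (45.0 ± 9.40 FPKM with busulfan and 29.4 ± 6.05 FPKM without, SD, n = 9 each). Of 18 small proteoglycans and elastic fiber genes 2 rose and 1 fell, with Thbs2, a thrombospondin, at 0.60 log2 and Fbn2, a fibrillin, at -1.20 log2 (limma adjusted p = 1.28e-08). Of 18 TGF-beta pathway genes 3 rose and 0 fell, with the largest rise for Ltbp3, which binds latent TGF-beta, at 0.46 log2 (50.7 ± 6.54 FPKM with busulfan and 36.3 ± 2.87 FPKM without, SD, n = 9 each). These counts stand beside 13.3% of all tested genes called higher and 24.8% lower. Rises of 2 of 18 and 3 of 18 lay near the first share, and none of the lists was tested against it. In the 4 AOS comparisons limma called 0 of the 132.

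**Figure D5:**
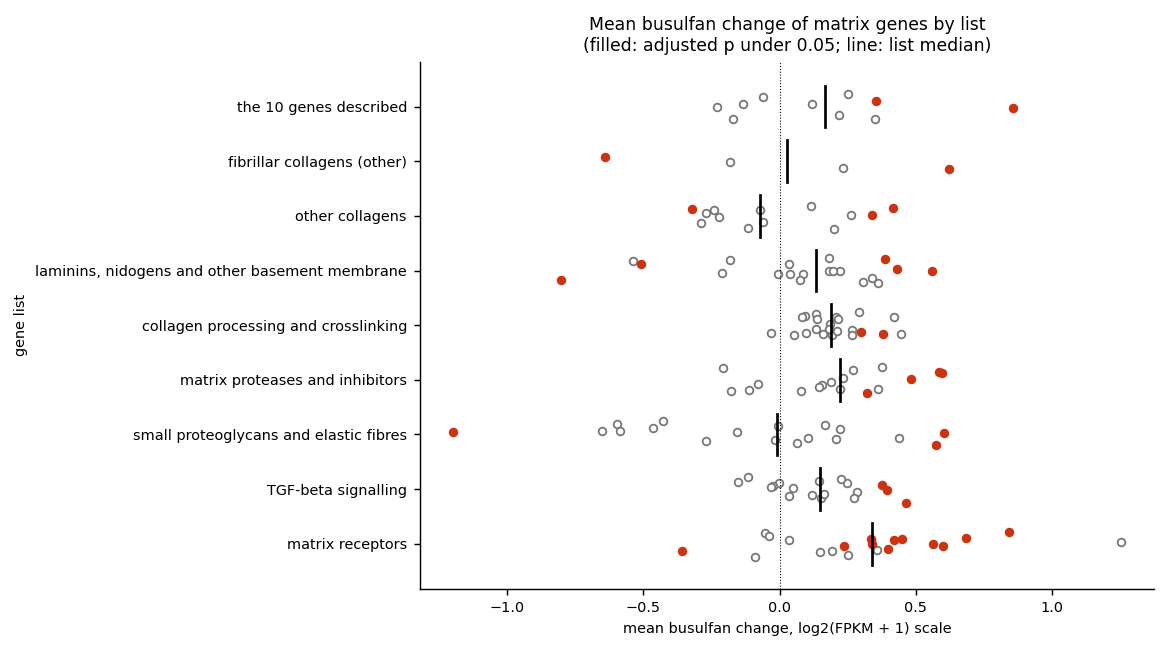
Mean busulfan change on the log2(FPKM + 1) scale (horizontal axis) of the 10 genes and of 8 lists of matrix genes (rows), where filled points had an adjusted p under 0.05 and vertical lines are medians. Filled points lie mostly right of 0, with 10 of 20 matrix receptors called higher (13.3% of all tested genes), and Fbn2 lies farthest left at -1.20.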

How the data were processed

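The 18 samples were grouped by their titles. Per the supplementary methods, poly(A) RNA was sequenced on an Illumina HiSeq instrument and mapped to reference genes with SOAPaligner, whereas the submitters' processing notes name HISAT, Bowtie2, RSEM and the GRCm38.p5 build without roles. The authors deposited FPKM values with 2 decimals, and 20656 of 20811 NCBI gene numbers matched a symbol. Low values held no whole-read steps (19.0% of 674 ratios within 0.1 of a whole number, 20% by chance), so depth stayed unknown and precision was judged from replicates. The 15790 genes that reached 1 FPKM in 3 or more samples were log2 transformed after adding 1 and fitted in R 4.3.3 with limma 3.58.1 (eBayes with a trend). Each group had 1 coefficient, which left 12 residual degrees of freedom. Fold changes are on this log2(FPKM + 1) scale and understate those of low genes. P-values were adjusted by the Benjamini-Hochberg method, with a threshold of 0.05. Single members were also tested with exact permutation tests (20 ways per pair of groups, 8000 for the mean busulfan change). The fit was tested on simulated data. Python 3.11.15, pandas 2.3.3 and matplotlib 3.10.9 were used. All 10 members are described in every sample; for Col1a1, Col4a1, Fn1 and Lama1 the 3 nearest other genes are named, and for each pathway list the called gene with the largest rise and the largest fall, with further integrins chosen after their values were seen. Members and lists were chosen with earlier results of these data known. The alternatives were other limits, filters, scalings, pseudocounts, a replicate block and omission of samples.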

Additional observations from a re-analysis of the deposited data

How the results depend on the processing

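Counts of called members were small, and most calls lay near the threshold. With a log2 change of at least 1 required beside an adjusted p under 0.05, 1 member was called in B0 against A0, and 0 in BA50 against A50 and in the mean busulfan change. Of all tested genes 3.64%, 4.52% and 3.8% passed there. At an adjusted p of at most 0.001 as well, 0 were called in B0 against A0, BA50 against A50 and the mean change, where 2.54%, 3.39% and 3.61% of all tested genes passed. With no filter or quantile normalization, 0 were called in BA50 against A50 and 1 in the mean change. No filter called 514 of 22657 genes higher and 2849 lower in BA50, and 1978 and 4580 in the mean change. Quantile normalization called 922 of 15790 genes higher and 2299 lower in BA50, and 3658 and 3441 in the mean change. Median centring of the samples gave 1 in BA10 against A10 and 3 in the mean change. It called 1303 of 15790 genes higher and 2108 lower in BA10, and 3974 and 3173 in the mean change. Leaving out 1 sample gave 0 to 1 in BA10 against A10, 0 to 1 in BA50 against A50 and 1 to 3 in the mean change. Of 15790 genes these omissions called 173 to 1285 higher and 1863 to 2464 lower in BA10. They called 258 to 1122 higher and 2001 to 2976 lower in BA50, and 1648 to 2351 higher and 3646 to 4159 lower in the mean change. With A0 and B0 left out, a setting chosen after seeing the data, BA50 against A50 had 0, where 364 of 15790 genes were called higher and 2212 lower.

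The replicate block left 0 called in BA50 against A50 in place of 1, where it called 505 of 15790 genes higher and 2441 lower. It changed no other count of called members. Deviations of samples with the same number correlated without a common sign in most comparisons (from -0.43 to 0.56), so the numbers were not taken to pair samples. BA50 and B0 alone had 3 of 3 correlations above 0.1, and there the block called 0 of 10, as did the fit without it.

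Signs of small estimates were unstable. The mean change of Col3a1 was 0.017 log2 under median centring and 0.084 log2 with A0 and B0 left out. Leaving out 1 sample moved the mean change from -0.23 to 0.23 log2 for Col3a1, from -0.38 to 0.0055 log2 for Col1a1, from -0.29 to 0.022 log2 for Col1a2 and from -0.32 to 0.058 log2 for Col6a1. Over all members, comparisons and alternatives, 98 of 1800 values with 1 sample left out and 12 of 830 others changed sign, and 0 of these were called in either fit. The cause of these changes was not tested. Read depth is unknown, so limits of detection cannot be given.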
